A study of Mus musculus with 10 samples.

Results

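The Rab GTPase genes were taken as every protein-coding gene whose mouse symbol is Rab, a number and at most a single letter. Genes of proteins that only interact with Rabs, such as Rab3ip, Rab11fip1 or Rab3gap1, were left out. The rule found 59 of the 48709 genes in the count tables, and 55 of the 59 had enough counts to be tested. The RNA came from primary cultures of mouse hippocampal neurons, labelled DIV10-12 (days in vitro), after 48 h with RNA-loaded lipid nanoparticles. In 4 libraries, called anti-miR-409-5p here, the load was an oligonucleotide that inhibits that microRNA. In another 4 it was anti-miR-501-3p, and in 2 control libraries scramble RNA. All groups, the control included, thus received particles with RNA. The labels name no strain or sex and do not tell whether replicates are separate cultures. The p-values below therefore measure only the spread between these libraries, which may be technical.

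Rab proteins are small GTPases that mark membranes. In the GTP-bound form, made by exchange factors, each Rab recruits effectors such as tethers, motors and kinases to a particular organelle; GTPase-activating proteins return it to the GDP-bound form, which the GDP dissociation inhibitors take off the membrane. In neurons Rabs carry cargo from the endoplasmic reticulum through the Golgi into axons and dendrites, recycle receptors through endosomes, and prime synaptic vesicles for release.

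Total counts lay between 22254788 and 32096808 per library. Over all 16884 tested genes, 27.8% were called under anti-miR-409-5p (15.6% as higher, 12.2% as lower), and 33% under anti-miR-501-3p (17.6% as higher, 15.4% as lower). Neuronal markers were abundant and those of other cells were present. The summed level of 12 pan-neuronal markers was 9346 to 9889 CPM (counts scaled to library size by TMM) under anti-miR-409-5p, 9255 to 9996 under anti-miR-501-3p and 8780 and 9029.9 in control. That of 8 astrocyte markers was 2342 to 2430.3, 2249 to 2363 and 2339 and 2379.5, in the same order. Summed levels of 10 microglial markers stayed within 17.3 to 22.1 CPM over all libraries, and those of 9 oligodendrocyte-lineage markers within 373 to 653 CPM. For 9 endothelial and fibroblast markers they lay within 335 to 550 CPM, and for 6 proliferation markers within 66.3 to 124 CPM. No marker was at 0 in every library, but Mag, Cldn5 and Itgam reached at most 0.0908, 0.0711 and 0.102 CPM. Only 5 of the 10 microglial markers had enough counts to be tested. In such bulk RNA, fewer cells of a type and less RNA per cell cannot be told apart. Counts depended on transcript GC content to a different degree in each library. For each gene, the mean log2 CPM of the 10 libraries was subtracted, and the remainder was fitted on GC content. The slope per 10 points of GC was -0.109 to 0.0384 under anti-miR-409-5p, -0.131 to 0.00784 under anti-miR-501-3p and 0.203 and 0.272 in control. Such slopes show only how libraries differ from each other, not how strongly the counts of a library depend on GC content.

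Rab genes differed widely in level, and by RPKM Rab6b and Rab3a stood at the top in every group. Levels were compared between genes as RPKM (CPM per kilobase of annotated exon, over all annotated transcripts of a gene). This length was 5031 bases for Rab6b, 2226 for Rab3a and 13589 for Rab14. Their longest protein-coding transcripts had 5007, 1556 and 3081 bases. The order of genes may therefore differ by transcript length, which was not computed. Rab6b, the neuron-enriched form of the Golgi regulator Rab6, was highest, with 226 ± 3.16 RPKM under anti-miR-409-5p, 227 ± 2.88 under anti-miR-501-3p and 228 ± 5.68 in control (SD, n = 4, 4 and 2). Rab3a, the main Rab of synaptic vesicles, came next with 194 ± 2.92 RPKM under anti-miR-409-5p, 191 ± 2.36 under anti-miR-501-3p and 209 ± 4.49 in control. Rab6a (Golgi), Rab2a (endoplasmic reticulum to Golgi), Rab10 (exocytosis and axon growth), Rab5c (early endosome), Rab1a, Rab7, Rab11a and Rab1b followed, and these 10 genes were the members above 50 RPKM averaged over the 10 libraries. A further 22 lay between 10 and 50 RPKM, 14 between 1 and 10, and 13 below 1. At the low end, Rab17, Rab19, Rab25 and Rab44 were the 4 members with too few counts to test. Their highest library values were 0.243, 0.0908, 0.0454 and 0.347 CPM, against a value of 0.0951 to 0.136 CPM for 3 counts in a library. Rab17 and Rab25 are known from epithelia. Over the 10 libraries the RPKM ranges of Rab6b and Rab3a did not overlap, whereas those of Rab5c, Rab1a, Rab7 and Rab11a did. Such ranges do not include the uncertainty of the length.

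**Figure D1:**
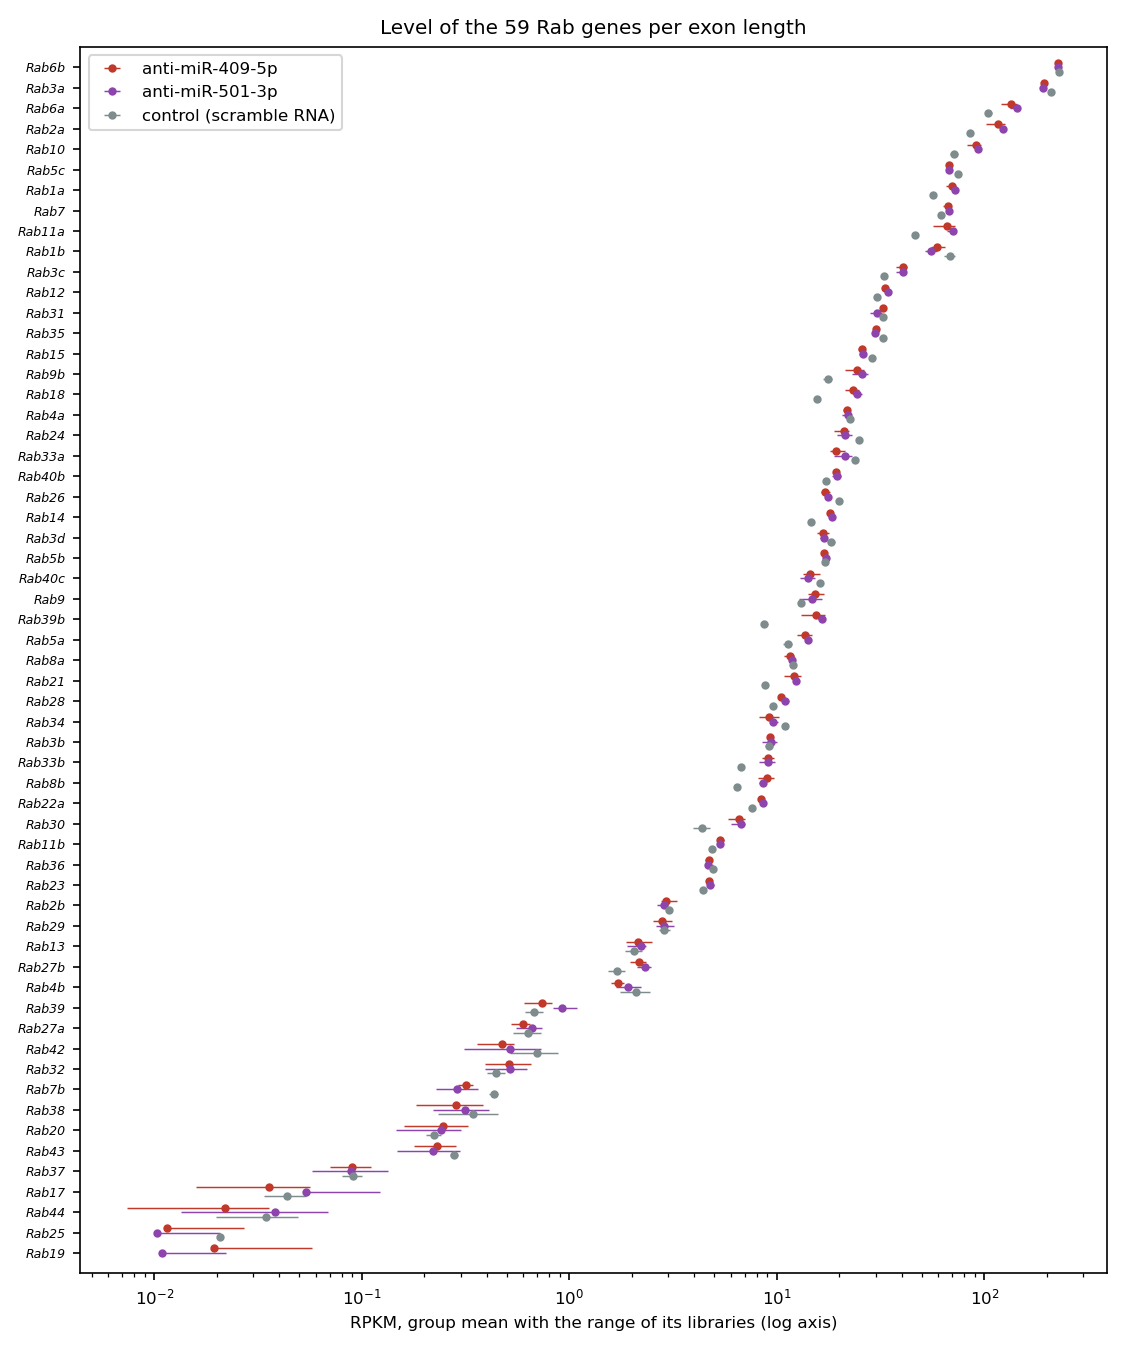
Level of each Rab gene in RPKM on a log axis, as the mean of each group (points) with the range of its libraries (lines). Rab6b and Rab3a stand at the right end, and 13 genes lie below 1 RPKM; a group at 0 is not drawn.

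Rab genes took 0.590%, 0.602%, 0.617% and 0.605% of all counts in the anti-miR-409-5p libraries (replicates 1 to 4), 0.606%, 0.619%, 0.614% and 0.612% in the anti-miR-501-3p libraries, and 0.560% and 0.568% in the controls. All 8 anti-miR libraries thus lay above both controls. Of the 55 tested members, 19 rose and 9 fell under anti-miR-409-5p, with a median log2 fold change of 0.080 beside -0.012 over all tested genes. Under anti-miR-501-3p, 21 rose and 8 fell, with a median of 0.11 beside -0.012. Over all tested genes, 15.6% rose and 12.2% fell under anti-miR-409-5p, and 17.6% and 15.4% under anti-miR-501-3p. These calls come from edgeR's quasi-likelihood test at a Benjamini-Hochberg adjusted p of 0.05 over all genes, and both comparisons use the same 2 control libraries. All 4 anti-miR-409-5p libraries lay above both controls for 24 members (24.1% of all tested genes) and below both for 11 (24%). For anti-miR-501-3p the counts were 24 members above (24.3% of all tested genes) and 11 below (25.6%). The changes were small. Their median size on the log2 scale, regardless of sign, was 0.19 and 0.17, and the median SE was 0.064 in both comparisons. With control replicate 1 left out, 13 members passed as higher under anti-miR-409-5p (6.5% of all tested genes) and 0 as lower (0.977%), and 17 and 0 passed for anti-miR-501-3p (8.77% and 1.57%). With control replicate 2 left out, 17 and 2 passed for anti-miR-409-5p (12.7% and 6.45%) and 18 and 3 for anti-miR-501-3p (14.9% and 10.6%). Several falls lost their call at a similar size. Under anti-miR-409-5p, Rab15 had a log2 fold change of -0.155 without control replicate 1 beside -0.156 with all libraries, Rab33a -0.33 beside -0.31 and Rab26 -0.20 beside -0.22, while Rab1b had -0.11 beside -0.21. Of the rises, those of Rab5a, Rab6a, Rab12, Rab22a, Rab27b and Rab40b under anti-miR-409-5p and of Rab7, Rab12, Rab22a and Rab40b under anti-miR-501-3p were lost when control replicate 1 was left out. Without control replicate 2, Rab12 and Rab40b ended in the first comparison and Rab7, Rab28 and Rab40b in the second. In these fits the single control is taken to vary as the anti-miR libraries do.

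**Figure D2:**
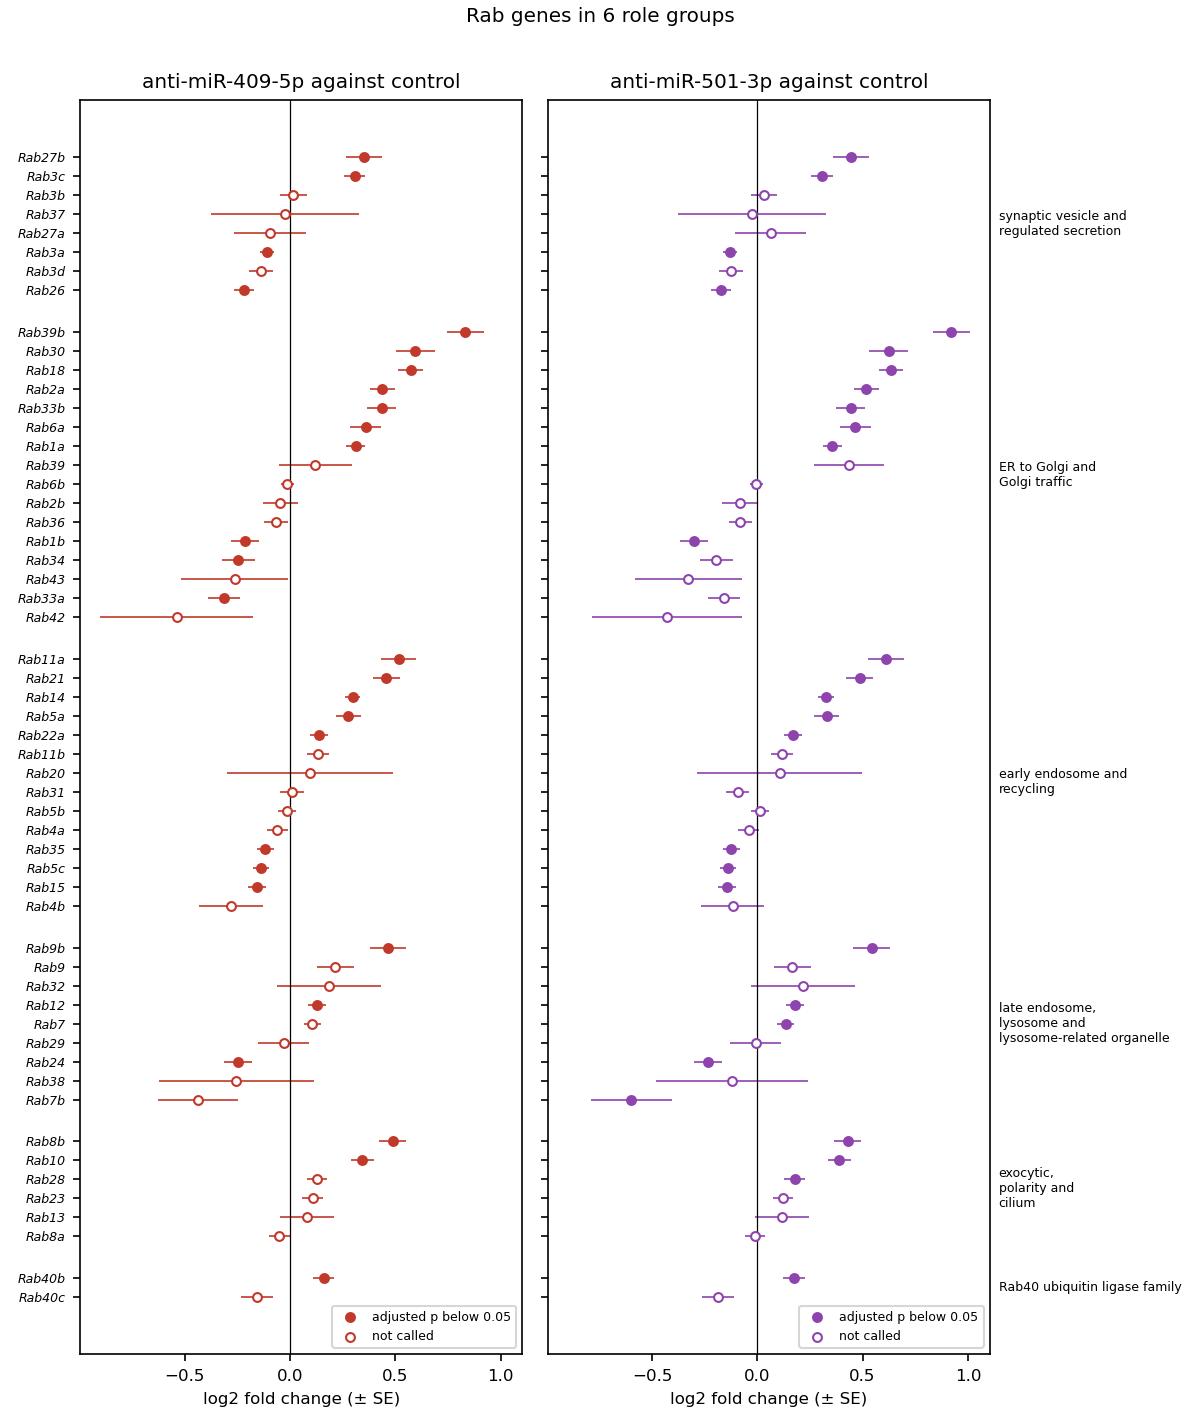
Log2 fold change (± SE) of the 55 tested Rab genes under anti-miR-409-5p (left) and anti-miR-501-3p (right) against control, in 6 groups by cellular role; filled points passed an edgeR adjusted p of 0.05. Risers and fallers occur together within the 4 largest role groups, and Rab39b lies farthest to the right in both panels.

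Among the Rabs of synaptic vesicles and regulated secretion, 2 rose and 2 fell in each comparison out of 8 tested. Over all tested genes, 15.6% rose and 12.2% fell under anti-miR-409-5p, and 17.6% and 15.4% under anti-miR-501-3p. Rab3a (chromosome 8, 70754679 to 70758677 in mm10), whose protein cycles on and off synaptic vesicles with each release, had 438, 434, 431 and 422 CPM under anti-miR-409-5p (replicates 1 to 4), 433, 424, 420.1 and 427 under anti-miR-501-3p (replicates 1 to 4) and 473 and 458 in the control libraries. Every anti-miR library lay below both controls, by a small margin. Its log2 fold change was -0.11 ± 0.034 (SE) under anti-miR-409-5p and -0.13 ± 0.034 under anti-miR-501-3p (edgeR adjusted p = 0.0209 and 0.00716), and neither call held without control replicate 1, nor the first without control replicate 2. Rab3c (chromosome 13, 110054187 to 110280996), a close relative also found on synaptic vesicles, moved the other way, with 454, 492, 502 and 508 CPM under anti-miR-409-5p (replicates 1 to 4), 452, 499, 500.3 and 505 under anti-miR-501-3p (replicates 1 to 4) and 381 and 409.51 in the control libraries. Both anti-miR groups lay above both controls, with replicate 1 of each nearest to them. The log2 fold change of Rab3c was 0.31 ± 0.052 (SE) under anti-miR-409-5p and 0.31 ± 0.052 under anti-miR-501-3p (edgeR adjusted p = 5.3e-04 and 3.5e-04). Rab3b and Rab3d did not pass (0.016 and 0.031 for Rab3b, -0.14 and -0.12 for Rab3d, as log2 fold changes under the inhibitors of miR-409-5p and of miR-501-3p). Rab26, which directs synaptic vesicles to autophagosomes, fell, at 51.4, 48.4, 47.7 and 46.7 CPM under anti-miR-409-5p (replicates 1 to 4), 51.4, 48.6, 50.9 and 49.5 under anti-miR-501-3p (replicates 1 to 4) and 56.7 and 56.3 in the control libraries. No anti-miR library reached the lower control. Rab26 had a log2 fold change of -0.22 ± 0.047 (SE) under anti-miR-409-5p and -0.17 ± 0.047 under anti-miR-501-3p (edgeR adjusted p = 0.00275 and 0.00906); both calls ended without control replicate 1, and the second also without control replicate 2. Rab27b, which docks secretory vesicles and exosomes at the plasma membrane, rose (0.35 and 0.45; edgeR adjusted p = 0.00614 and 8.6e-04). Rab27a (-0.096 and 0.063) and Rab37 (-0.023 and -0.025) did not pass.

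The Rabs of the endoplasmic reticulum and Golgi held the largest rises. Of 16 tested, 7 rose under each inhibitor (15.6% and 17.6% of all tested genes). Under anti-miR-409-5p 3 fell, and 1 under anti-miR-501-3p (12.2% and 15.4% of all tested genes). Rab39b (chromosome X, 75572046 to 75578231), a neuronal Rab mutated in human X-linked intellectual disability with early parkinsonism, had 44.5, 51.7, 57.9 and 56.7 CPM under anti-miR-409-5p (replicates 1 to 4), 53.5, 58.3, 55 and 57 under anti-miR-501-3p (replicates 1 to 4) and 28.4 and 30.7 in the control libraries. All 8 anti-miR libraries exceeded both controls, the lowest being replicate 1 of anti-miR-409-5p. The log2 fold change of Rab39b was 0.83 ± 0.088 (SE) under anti-miR-409-5p and 0.92 ± 0.088 under anti-miR-501-3p (edgeR adjusted p = 4.9e-05 and 1.2e-05), a 1.78-fold and 1.89-fold level. Its relative Rab39 was low, with 1.79, 2.16, 2.36 and 2.44 CPM under anti-miR-409-5p (replicates 1 to 4), 2.47, 2.61, 3.21 and 2.64 under anti-miR-501-3p (replicates 1 to 4) and 1.81 and 2.2 in the control libraries. Only the anti-miR-501-3p libraries lay above both controls, and Rab39 did not pass (0.12 and 0.44; edgeR adjusted p = 0.65 and 0.0514). Of the transcript 50-mers of Rab39b, 16.2% also occur on the opposite strand in Gm15063, and the library kit does not mark strand.

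Rab30 (chromosome 7, 92741603 to 92844535), which sits on the Golgi, had 55.8, 62.3, 67.3 and 67.9 CPM under anti-miR-409-5p (replicates 1 to 4), 58.1, 67.6, 66.1 and 66.5 under anti-miR-501-3p (replicates 1 to 4) and 38.1 and 45.6 in the control libraries. The groups did not overlap with control. For Rab30 the log2 fold change was 0.60 ± 0.094 (SE) under anti-miR-409-5p and 0.62 ± 0.094 under anti-miR-501-3p (edgeR adjusted p = 9.5e-04 and 4.8e-04). Rab18 (chromosome 18, 6733905 to 6794429), which acts at the endoplasmic reticulum and lipid droplets and is mutated in human Warburg Micro syndrome, had 145, 158, 171 and 165 CPM under anti-miR-409-5p (replicates 1 to 4), 159.8, 176, 165 and 165 under anti-miR-501-3p (replicates 1 to 4) and 104 and 111 in the control libraries. It was above control in all 8 anti-miR libraries, with a log2 fold change of 0.57 ± 0.057 (SE) under anti-miR-409-5p and 0.63 ± 0.057 under anti-miR-501-3p (edgeR adjusted p = 1.2e-05 and 2.7e-06). Rab2a, which supports traffic between the endoplasmic reticulum and the Golgi, had 218, 245, 267 and 258 CPM under anti-miR-409-5p (replicates 1 to 4), 253, 266, 264 and 260.2 under anti-miR-501-3p (replicates 1 to 4) and 180.0 and 184 in the control libraries. For Rab2a the log2 fold change was 0.44 ± 0.060 (SE) under anti-miR-409-5p and 0.52 ± 0.060 under anti-miR-501-3p (edgeR adjusted p = 1.5e-04 and 2.7e-05), again with no overlap. Rab6a, which drives transport back through the Golgi, had 449, 478, 537 and 533 CPM under anti-miR-409-5p (replicates 1 to 4), 498, 548, 551 and 553 under anti-miR-501-3p (replicates 1 to 4) and 373 and 405 in the control libraries, also without overlap. Rab6a changed by 0.36 ± 0.072 (SE) under anti-miR-409-5p and 0.47 ± 0.072 under anti-miR-501-3p (edgeR adjusted p = 0.00369 and 5.8e-04) on the log2 scale, and 18.97% of its 50-mers also occur in other genes, mainly on the opposite strand in Mrpl48. Rab6b, although highest in level, did not differ beyond its spread, at 1156, 1135, 1142 and 1118 CPM under anti-miR-409-5p (replicates 1 to 4), 1126, 1161, 1147 and 1143 under anti-miR-501-3p (replicates 1 to 4) and 1128 and 1168 in the control libraries (-0.013 and -0.0049 as log2 fold changes; edgeR adjusted p = 0.808 and 0.927).

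Rab1a and Rab1b, which share the step from the endoplasmic reticulum to the Golgi, moved apart. Rab1a had 247, 264, 277 and 276 CPM under anti-miR-409-5p (replicates 1 to 4), 267, 283, 276 and 272 under anti-miR-501-3p (replicates 1 to 4) and 212 and 217 in the control libraries, all 8 anti-miR libraries above control, with a log2 fold change of 0.31 ± 0.045 (SE) under anti-miR-409-5p and 0.36 ± 0.045 under anti-miR-501-3p (edgeR adjusted p = 1.4e-04 and 2.8e-05). Rab1b had 146, 137, 127 and 125 CPM under anti-miR-409-5p (replicates 1 to 4), 134, 127, 125 and 117 under anti-miR-501-3p (replicates 1 to 4) and 165 and 145 in the control libraries. Here anti-miR-409-5p replicate 1 overlapped with control, and the anti-miR-501-3p libraries lay below it. Rab1b had a log2 fold change of -0.21 ± 0.067 (SE) under anti-miR-409-5p and -0.30 ± 0.067 under anti-miR-501-3p (edgeR adjusted p = 0.029 and 0.00368). Both calls ended without control replicate 1, and the first also without anti-miR-409-5p replicate 3 or 4. Rab33b, a Golgi Rab that binds the autophagy protein Atg16l1, rose (0.43 and 0.44; edgeR adjusted p = 3.6e-04 and 1.9e-04). Its neuronal relative Rab33a had 24.7, 21.7, 21.7 and 20.8 CPM under anti-miR-409-5p (replicates 1 to 4), 25.5, 24.9, 26.6 and 21.9 under anti-miR-501-3p (replicates 1 to 4) and 27 and 28.2 in the control libraries, below both controls in every anti-miR library. Rab33a fell under anti-miR-409-5p and did not pass under anti-miR-501-3p, at -0.31 ± 0.077 (SE) under anti-miR-409-5p and -0.16 ± 0.077 under anti-miR-501-3p (edgeR adjusted p = 0.00631 and 0.122) on the log2 scale. Rab34, which acts in lysosome positioning and early cilium formation, had 24.4, 23.6, 19.7 and 20.2 CPM under anti-miR-409-5p (replicates 1 to 4), 22.3, 24.1, 22.6 and 22 under anti-miR-501-3p (replicates 1 to 4) and 26.9 and 25.2 in the control libraries, also below both controls throughout. It fell under anti-miR-409-5p and did not pass under anti-miR-501-3p (-0.24 and -0.19; edgeR adjusted p = 0.0286 and 0.0664). The calls of Rab33a and Rab34 ended without either control library, and that of Rab34 also without anti-miR-409-5p replicate 3 or 4. Rab2b, Rab36, Rab42 and Rab43 did not pass in either comparison. Rab2b shares 57.0% of its 50-mers with Gm43766 and Tox4 on the opposite strand, and Rab43 shares 74.5% with the overlapping gene Gm45140, so reads of either are hard to assign.

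Early-endosome and recycling Rabs split as well, with 5 rises and 3 falls among 14 tested in each comparison. Of all tested genes, 15.6% and 17.6% rose and 12.2% and 15.4% fell under the inhibitors of miR-409-5p and of miR-501-3p. Rab11a (chromosome 9, 64715299 to 64737758), the main Rab of recycling endosomes, had 168, 195, 215 and 210.3 CPM under anti-miR-409-5p (replicates 1 to 4), 197, 217, 218 and 209.7 under anti-miR-501-3p (replicates 1 to 4) and 135 and 141 in the control libraries. Replicate 1 of anti-miR-409-5p was the lowest of these and still above control. The log2 fold change of Rab11a was 0.52 ± 0.084 (SE) under anti-miR-409-5p and 0.61 ± 0.084 under anti-miR-501-3p (edgeR adjusted p = 0.00128 and 3.2e-04). Its paralog Rab11b stayed close to control at 32.4, 33.9, 33.3 and 31.3 CPM under anti-miR-409-5p (replicates 1 to 4), 32.7, 31.7, 32.2 and 33 under anti-miR-501-3p (replicates 1 to 4) and 29.2 and 30.5 in the control libraries. Although its groups did not overlap, it did not pass (0.13 and 0.12; edgeR adjusted p = 0.0659 and 0.0898). Rab21, which guides integrins through early endosomes, had 54.3, 59, 64.8 and 65.6 CPM under anti-miR-409-5p (replicates 1 to 4), 60.4, 62.1, 61.9 and 64.2 under anti-miR-501-3p (replicates 1 to 4) and 43.5 and 45.2 in the control libraries. It rose in both comparisons without overlap, with a log2 fold change of 0.46 ± 0.064 (SE) under anti-miR-409-5p and 0.49 ± 0.064 under anti-miR-501-3p (edgeR adjusted p = 1.1e-04 and 3.8e-05).

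The Rab5 genes, which control fusion of early endosomes, took 3 courses. Rab5a rose (66 to 77.5 CPM under anti-miR-409-5p, 73.9 to 75.3 under anti-miR-501-3p and 56.1 and 62.6 in control; log2 fold changes 0.28 and 0.33; edgeR adjusted p = 0.00319 and 6.7e-04). Rab5b had 72.6, 69.6, 70.3 and 69.985 CPM under anti-miR-409-5p (replicates 1 to 4), 71.7, 71.3, 73.8 and 71.3 under anti-miR-501-3p (replicates 1 to 4) and 70.3 and 72.4 in the control libraries, which overlapped throughout (-0.015 and 0.013; edgeR adjusted p = 0.83 and 0.847). Rab5c, the most abundant of the family, had 152, 146, 149 and 145 CPM under anti-miR-409-5p (replicates 1 to 4), 154, 149, 145 and 145 under anti-miR-501-3p (replicates 1 to 4) and 164 and 162 in the control libraries. Every anti-miR library lay below both controls. Its log2 fold change was -0.14 ± 0.038 (SE) under anti-miR-409-5p and -0.14 ± 0.038 under anti-miR-501-3p (edgeR adjusted p = 0.0132 and 0.0104), and these calls ended without control replicate 1, the first also without control replicate 2. Rab14 (endosome to Golgi; 0.30 and 0.33) and Rab22a (early endosome; 0.14 and 0.17) rose in both comparisons. Rab15, a neuronal Rab that slows recycling, had 121, 122, 118 and 114 CPM under anti-miR-409-5p (replicates 1 to 4), 122, 118, 124 and 115 under anti-miR-501-3p (replicates 1 to 4) and 131 and 133 in the control libraries, below control throughout. Rab15 changed by -0.16 ± 0.042 (SE) under anti-miR-409-5p and -0.14 ± 0.042 under anti-miR-501-3p (edgeR adjusted p = 0.011 and 0.0138) on the log2 scale. Rab35, which acts in fast recycling and neurite outgrowth, had 86.9, 82.7, 83.8 and 83.9 CPM under anti-miR-409-5p (replicates 1 to 4), 84.5, 83.9, 81.2 and 86.2 under anti-miR-501-3p (replicates 1 to 4) and 92.7 and 90.1 in the control libraries, also without overlap. The falls of Rab35 were the closest to the threshold among the called members (-0.12 and -0.12; edgeR adjusted p = 0.0416 and 0.0278), and those of both genes ended without either control. The Rab35 calls ended in 8 and 5 of the 10 fits that each left out a library. Rab4a, Rab4b, Rab20 and Rab31 did not pass in either comparison.

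Late-endosome and lysosome Rabs gave 2 rises and 1 fall among 9 tested under anti-miR-409-5p (15.6% and 12.2% of all tested genes). Under anti-miR-501-3p they gave 3 rises and 2 falls (17.6% and 15.4%). In so small a group these counts lie near the shares over all genes. Rab9b (chromosome X, 136858147 to 136868755), a form of Rab9, which returns receptors from late endosomes to the Golgi, had 85.1, 97.5, 105 and 99 CPM under anti-miR-409-5p (replicates 1 to 4), 91.3, 107, 109 and 99.6 under anti-miR-501-3p (replicates 1 to 4) and 66.1 and 73.6 in the control libraries. All anti-miR libraries exceeded control, and the log2 fold change was 0.47 ± 0.087 (SE) under anti-miR-409-5p and 0.54 ± 0.087 under anti-miR-501-3p (edgeR adjusted p = 0.00253 and 7.2e-04). Rab9 itself had 25.3, 24.7, 29.5 and 27 CPM under anti-miR-409-5p (replicates 1 to 4), 22.3, 25, 26.5 and 28.9 under anti-miR-501-3p (replicates 1 to 4) and 22.9 and 22.9 in the control libraries. It lay above both controls under anti-miR-409-5p only, and did not pass (0.22 and 0.17; edgeR adjusted p = 0.083 and 0.169). Rab12, a substrate of the kinase Lrrk2, rose (0.13 and 0.18; edgeR adjusted p = 0.0308 and 0.00398). Rab7, the central Rab of late endosomes, rose under anti-miR-501-3p and did not pass under anti-miR-409-5p (0.11 and 0.13; edgeR adjusted p = 0.0593 and 0.0161). Rab24, which is linked to autophagy, had 44.2, 44.8, 42.7 and 38 CPM under anti-miR-409-5p (replicates 1 to 4), 46.2, 43.8, 42 and 39.1 under anti-miR-501-3p (replicates 1 to 4) and 49.5 and 51.1 in the control libraries. It fell in both comparisons, with a log2 fold change of -0.25 ± 0.067 (SE) under anti-miR-409-5p and -0.23 ± 0.067 under anti-miR-501-3p (edgeR adjusted p = 0.0118 and 0.0124), and both calls ended without either control. The transcripts of Rab24 share 49.6% of their 50-mers with Prelid1 on the opposite strand. Rab7b, a Rab of late endosomes and the trans-Golgi that is distinct from Rab7, was low, with 1.35, 1.46, 1.5 and 1.58 CPM under anti-miR-409-5p (replicates 1 to 4), 1.08, 1.49, 1.68 and 1.05 under anti-miR-501-3p (replicates 1 to 4) and 2.1 and 1.9 in the control libraries. All anti-miR libraries lay below both controls. Rab7b fell under anti-miR-501-3p and did not pass under anti-miR-409-5p, at -0.44 ± 0.19 (SE) under anti-miR-409-5p and -0.60 ± 0.19 under anti-miR-501-3p (edgeR adjusted p = 0.094 and 0.0231) on the log2 scale. This call ended without either control. Rab29, Rab32 and Rab38 did not pass.

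Of 6 tested Rabs of exocytosis, polarity and the cilium, 2 rose and 0 fell under anti-miR-409-5p (15.6% and 12.2% of all tested genes), and 3 rose and 0 fell under anti-miR-501-3p (17.6% and 15.4%). In a group of this size 0 falls lies near the share over all genes. Rab8b had 40.9, 38.6, 44.5 and 46 CPM under anti-miR-409-5p (replicates 1 to 4), 38.8, 41.9, 40.7 and 41.5 under anti-miR-501-3p (replicates 1 to 4) and 31.2 and 29.4 in the control libraries, above both controls throughout. It rose, with a log2 fold change of 0.49 ± 0.065 (SE) under anti-miR-409-5p and 0.43 ± 0.065 under anti-miR-501-3p (edgeR adjusted p = 7.9e-05 and 1.3e-04), whereas Rab8a, its paralog in transport to the cell surface and cilium, did not pass (-0.050 and -0.012; edgeR adjusted p = 0.482 and 0.888). Rab10, which delivers vesicles to the plasma membrane and supports axon growth, had 288, 314, 338 and 333 CPM under anti-miR-409-5p (replicates 1 to 4), 318, 339, 324 and 332 under anti-miR-501-3p (replicates 1 to 4) and 240.1 and 261 in the control libraries. It was above control in all 8 libraries, with a log2 fold change of 0.34 ± 0.056 (SE) under anti-miR-409-5p and 0.39 ± 0.056 under anti-miR-501-3p (edgeR adjusted p = 4.4e-04 and 1.0e-04). Rab28, a ciliary Rab, rose under anti-miR-501-3p (0.13 and 0.18; edgeR adjusted p = 0.0566 and 0.00878). Rab23, an inhibitor of Hedgehog signalling, had 38.9, 37.7, 39.7 and 40.1 CPM under anti-miR-409-5p (replicates 1 to 4), 39.2, 41, 39 and 38.8 under anti-miR-501-3p (replicates 1 to 4) and 36 and 36.6 in the control libraries. Its groups did not overlap with control, but the difference did not pass (0.11 and 0.12; edgeR adjusted p = 0.106 and 0.0589). Rab13, which acts at cell junctions, did not pass (0.080 and 0.12). Of the Rab40 genes, whose proteins recruit a ubiquitin ligase, Rab40b rose (0.16 and 0.17; edgeR adjusted p = 0.0261 and 0.0137) and Rab40c did not pass (-0.16 and -0.19; edgeR adjusted p = 0.132 and 0.0665).

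Without a replicate block, edgeR called no Rab gene between the 2 inhibitors, nor was any of all tested genes (0%); with the GC and length offset described below, 0.00592% of all tested genes were lower. Log2 fold changes of anti-miR-409-5p over anti-miR-501-3p lay between -0.32 and 0.16 over the 55 members, with a median absolute value of 0.038, and the smallest edgeR adjusted p was 0.844. DESeq2 also called 0, and at an unadjusted p of 0.05 edgeR gave 3 members. These were Rab33a (-0.15 ± 0.064 (SE)), Rab39 (-0.32 ± 0.13 (SE)) and Rab31 (0.10 ± 0.046 (SE)), with an edgeR adjusted p of 0.844, 0.845 and 0.845. Rab31, which carries cargo between the Golgi and endosomes, had 128, 120.0, 120.0 and 127 CPM under anti-miR-409-5p (replicates 1 to 4), 122, 109, 107 and 123 under anti-miR-501-3p (replicates 1 to 4) and 127 and 119 in the control libraries, and the anti-miR groups overlapped. With the replicate number as a block, edgeR called 2 members between the inhibitors, Rab6a (-0.11, adjusted p = 0.0126) and Rab31 (0.10, adjusted p = 0.0414), both named after their values were seen. In that fit 1.49% of all tested genes were called, and with the GC and length offset as well, which called the same 2 members, 1.06%. The labels give no sign that libraries of the same number share a culture or day.

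Some closely related Rab genes were called in opposite directions. This held for Rab1, Rab3 and Rab5 in both comparisons, for Rab33 under anti-miR-409-5p and for Rab7 under anti-miR-501-3p. The ranks that follow include members that were not called, and families of other genes were not ranked. Of 14 families with 2 or more tested members (Rab1, Rab2, Rab3, Rab4, Rab5, Rab6, Rab7, Rab8, Rab9, Rab11, Rab27, Rab33, Rab39 and Rab40), the member with the lowest transcript GC content had the highest log2 fold change in 14 under anti-miR-409-5p and in 14 under anti-miR-501-3p. GC contents were 42% and 58.9% for Rab1a and Rab1b, 41.9%, 49.3%, 53.2% and 55% for Rab3c, Rab3b, Rab3d and Rab3a, 42.3%, 49.1% and 54.7% for Rab5a, Rab5b and Rab5c, and 39.5% and 48.1% for Rab11a and Rab11b. In the Rab7 pair the contents were nearly equal, at 48.7% and 49.1% for Rab7 and Rab7b. Shared transcript stretches of 50 bases, the read length, were searched for among the 4 genes that share most with each member. For 0 of the 59 members was another Rab gene among those 4. Genes that share fewer stretches were not looked at, so mixing of reads between paralogs was not fully tested.

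**Figure D3:**
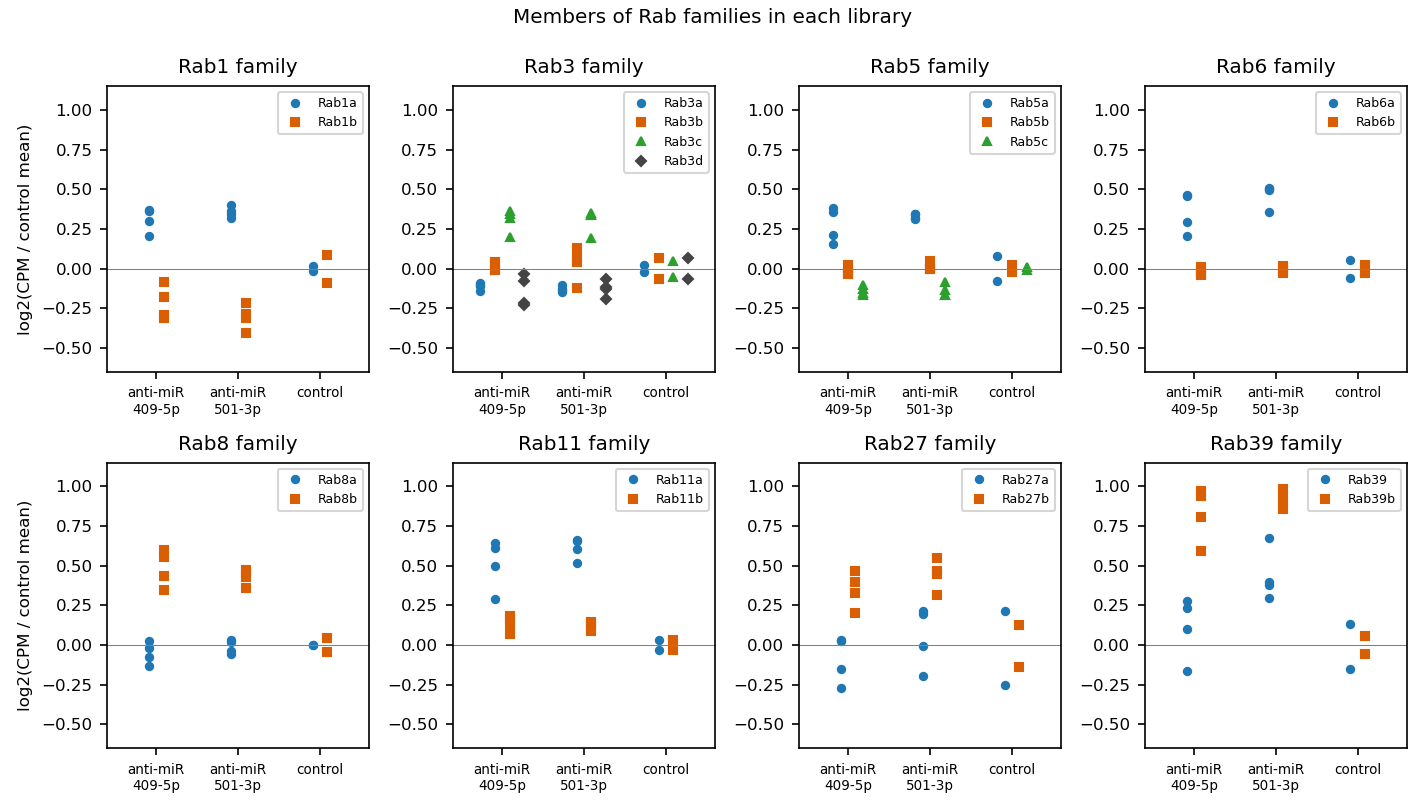
Each library's CPM relative to the control mean (log2) for the members of 8 Rab families, with anti-miR-409-5p (4 libraries), anti-miR-501-3p (4) and control (2) from left to right. Rab1a lies above and Rab1b below control, Rab3c above and Rab3a below, and Rab5a above and Rab5c below.

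Across all members the differences followed GC content. The 19 members that rose under anti-miR-409-5p had transcripts of 37.9% to 49.4% GC (median 42.3%), and the 9 that fell had 53.4% to 59.5% (median 55.3%). Under anti-miR-501-3p the 21 that rose also spanned 37.9% to 49.4% (median 42.7%). The 8 that fell spanned 49.1% to 58.9%, the lowest being Rab7b. Spearman's rho between log2 fold change and GC content over the 55 members was -0.859 and -0.888, as a description across genes of the same libraries. Of 16 members under 45% GC, 15 rose in each comparison, where 49.5% and 54.9% of all tested genes of that range rose. The exception was Rab39 at 41.2%. Of 11 members above 55% GC, 6 and 5 fell, beside 37.3% and 45.5% of all tested genes there.

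**Figure D4:**
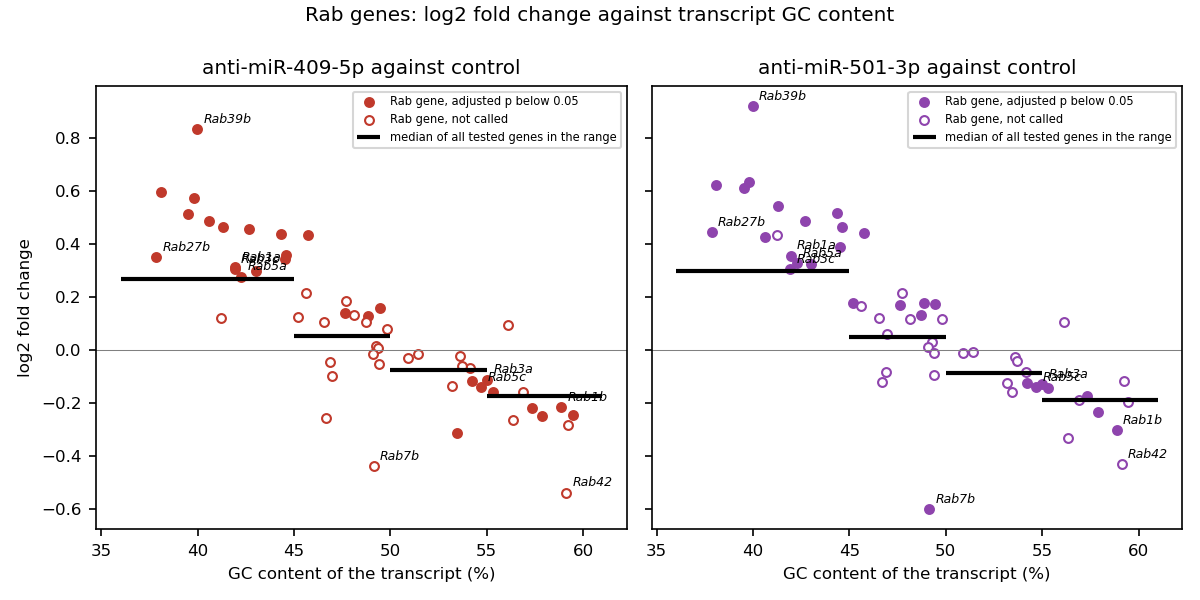
Log2 fold change of the 55 tested Rab genes against transcript GC content (%) under anti-miR-409-5p (left) and anti-miR-501-3p (right); filled points passed an edgeR adjusted p of 0.05 and black bars give the median of all tested genes in each GC range. Below 45% GC the members' median was 0.40 and 0.46, beside 0.27 and 0.30 over all tested genes, and Rab39b is the highest.

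Once each library's trend on GC content and transcript length was removed by an offset, 9 of the 19 rises and 0 of the 9 falls under anti-miR-409-5p still passed. In that fit 3.16% of all tested genes were higher and 2.13% lower. For anti-miR-501-3p, 12 of the 21 rises and 1 of the 8 falls passed (4.63% and 3.35% of all tested genes). Those that passed in the first comparison were Rab2a, Rab6a, Rab10, Rab11a, Rab18, Rab21, Rab33b, Rab39b and Rab40b, and the second added Rab7, Rab9b and Rab12. The single fall was Rab7b. Rab39b kept the largest corrected rise, 0.47 and 0.51 (edgeR adjusted p = 6.5e-06 and 9.5e-07). Rab33b had corrected log2 fold changes of 0.33 and 0.32, and Rab2a of 0.30 and 0.37. For Rab7b they were -0.47 and -0.62 (edgeR adjusted p = 0.185 and 0.0476). Others shrank to near 0, such as Rab30 (0.078 and 0.046), Rab3c (0.023 and 0.0053), Rab1a (0.062 and 0.075) and Rab5a (0.050 and 0.072). Rab27b changed sign, to -0.18 and -0.15 (edgeR adjusted p = 0.0755 and 0.121). Such an offset takes away any difference that runs along GC content, whatever its source. Whether GC content set the differences was not tested beyond this fit.

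Matches to the seeds of the inhibited microRNAs were counted in 3′ UTRs, taking the longest one annotated for a gene. For miR-409-5p the 7-letter matches were GGTAACC (seed bases 2 to 8) and GTAACCA (bases 2 to 7 with a following A), and for miR-501-3p GGTGCAT and GTGCATA. Only the transcript strand was searched, and overlapping letters counted as 1 match of 8 bases. Of the 59 members, 7 held a miR-409-5p match and 7 a miR-501-3p match, where 8.65% and 11.2% of 21021 genes with a 3′ UTR held them. The median 3′ UTR of the members was 1949 bases, against 961 over those genes. The sites below are shown because they cover the whole seed, and a further whole-seed miR-501-3p match, in Rab18, is not printed; the match is in capitals, and the letters come from GENCODE M21 transcripts (GRCm38, mm10), 5′ to 3′ on the gene's strand. For miR-409-5p they were:
Rab5c: ctggtggtcatGGTAACCAaaagaaagaag
Rab23: ctaactacatcGGTAACCAttttaccctga
Rab3c: ggaggcaattaGGTAACCtttccatgagtc
Rab5b: gaaaagaccacGGTAACCtcgagttgagcc
For miR-501-3p they were:
Rab6b: gagagaagataGGTGCATtttgggctctca
Rab30: gtgtgtcagcgGGTGCATgaggggctattc
Rab9: aagggatagttGGTGCATtctaaccaacac
The matched bases lie at chr11:100715118-100715125 (minus strand) for Rab5c, chr1:33739698-33739705 (plus) for Rab23, chr13:110060691-110060697 (minus) for Rab3c and chr10:128677850-128677856 (minus) for Rab5b. For the second microRNA they lie at chr9:103184787-103184793 (plus) for Rab6b, chr7:92836290-92836296 (plus) for Rab30 and chrX:166457682-166457688 (minus) for Rab9.

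Members with a miR-409-5p match did not move as a group, and of those with a miR-501-3p match some rose and none fell. Of the 7 with a miR-409-5p match, Rab1a and Rab3c rose under anti-miR-409-5p, Rab5c fell, and Rab5b, Rab7b, Rab23 and Rab43 did not pass. In that comparison 15.6% of all tested genes rose and 12.2% fell. Rab5c and Rab3c hold 2 matches each and moved in opposite directions. Of the 7 with a miR-501-3p match, Rab9b, Rab18 and Rab30 rose under anti-miR-501-3p, and Rab6b, Rab9, Rab11b and Rab32 did not pass. There 17.6% of all tested genes rose and 15.4% fell. Rab32, a Rab of lysosome-related organelles, had 1.53, 0.921, 1.32 and 1.01 CPM under anti-miR-409-5p (replicates 1 to 4), 1.22, 1.46, 1.22 and 0.915 under anti-miR-501-3p (replicates 1 to 4) and 1.14 and 0.935 in the control libraries. Rab43, a Golgi Rab, had 1.57, 0.985, 0.998 and 1.52 CPM under anti-miR-409-5p (replicates 1 to 4), 1.63, 1.39, 1.03 and 0.814 under anti-miR-501-3p (replicates 1 to 4) and 1.6 and 1.47 in the control libraries. Both overlapped with control. The rises were not limited to the inhibitor of the matching microRNA: log2 fold changes were 0.31 and 0.36 for Rab1a and 0.31 and 0.31 for Rab3c under the inhibitors of miR-409-5p and of miR-501-3p, and 0.47 and 0.54 for Rab9b, 0.57 and 0.63 for Rab18 and 0.60 and 0.62 for Rab30. Between the inhibitors these 5 genes differed by -0.045 ± 0.036 (SE), 7.2e-04 ± 0.042 (SE), -0.077 ± 0.069 (SE), -0.062 ± 0.045 (SE) and -0.028 ± 0.073 (SE), as log2 fold changes of anti-miR-409-5p over anti-miR-501-3p, and none passed (edgeR adjusted p of at least 0.844).

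**Figure D5:**
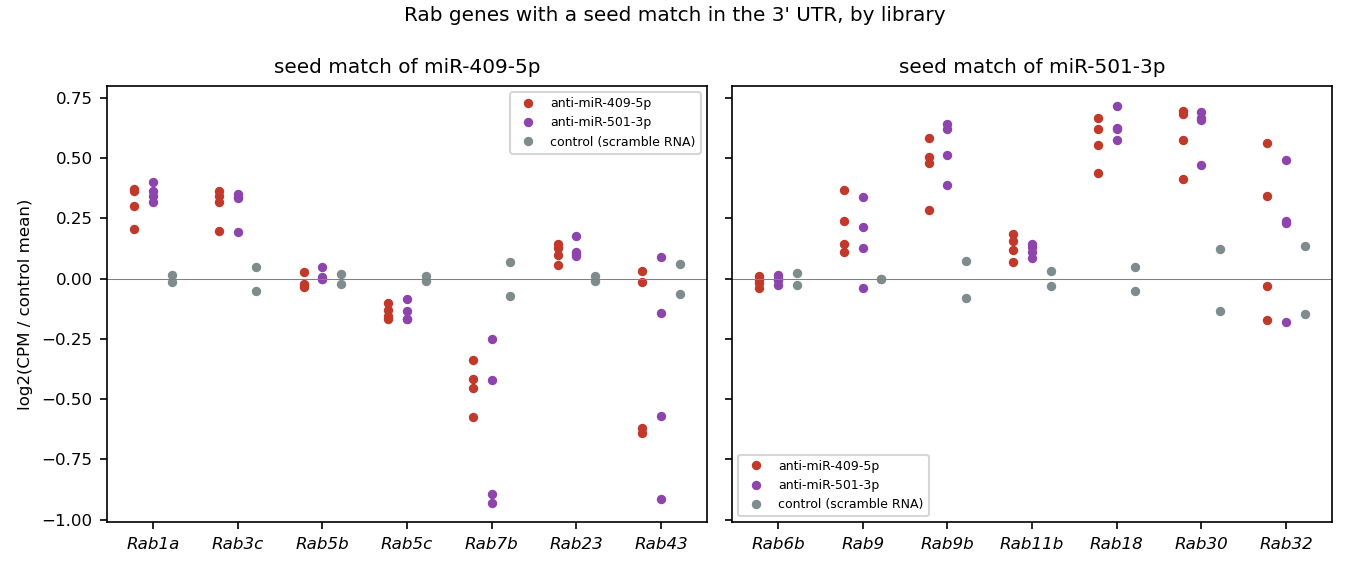
Each library's CPM relative to the control mean (log2) for the 7 Rab genes with a miR-409-5p seed match (left) and the 7 with a miR-501-3p seed match (right). In each panel some genes lie above control under both inhibitors, and others, such as Rab5b and Rab6b, lie on it.

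Among the regulators of Rabs, the calls are set beside the shares over all tested genes, given above (15.6% higher, 12.2% lower for anti-miR-409-5p; 17.6% and 15.4% for anti-miR-501-3p). Most of the list counts lay near these shares. Of 38 tested exchange factors, 6 rose and 7 fell under anti-miR-409-5p and 7 rose and 7 fell under anti-miR-501-3p, with median log2 fold changes of -0.032 and -0.085. Dennd6a, an exchange factor for Rab14, rose (0.35 and 0.42), and Sbf1 (Mtmr5) fell (-0.23 and -0.25). Of 39 GTPase-activating proteins, 8 rose in each comparison while 7 and 10 fell. Evi5, which acts on Rab11, had the smallest p of them and rose (0.39 and 0.41). Of 9 genes of prenylation and membrane recycling, Chm and Chml, the escort proteins that present new Rabs for prenylation, rose in both (0.59 and 0.72 for Chm, 0.57 and 0.64 for Chml). Rce1, a protease that trims prenylated proteins, fell under anti-miR-501-3p (-0.21 ± 0.073 (SE), edgeR adjusted p = 0.0317).

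Of 51 effectors, 10 and 11 rose and 6 and 7 fell. The Rab5 effectors Appl1 (0.37 and 0.41) and Eea1 (0.39 and 0.43) and the Rab11 effector Rab11fip2 (0.40 and 0.46) rose, and Rph3a, which binds Rab3 on synaptic vesicles, fell in both (-0.16 and -0.23; edgeR adjusted p = 0.00569 and 4.3e-04). Of the Rab kinases Lrrk1 and Lrrk2 and the Rab phosphatase Ppm1h, Lrrk2 rose under anti-miR-501-3p (0.28 ± 0.095 (SE), edgeR adjusted p = 0.0285), and no other call was made in this list. With the GC and length offset 0 exchange factors, 0 GTPase-activating proteins and 0 effectors passed under anti-miR-409-5p, and 3, 3 and 1 under anti-miR-501-3p. In the prenylation list Gdi2 was called lower in both with this offset, which turned its sign. Without the offset Gdi2 had log2 fold changes of 0.063 and 0.094 and did not pass (edgeR adjusted p = 0.207 and 0.0537). Chml was higher under anti-miR-501-3p with the offset, as was Ppm1h among the kinases and phosphatase.

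In the authors' deposited table for anti-miR-409-5p, 46 of the 55 listed members had an adjusted p, and 17 were higher and 7 lower at 0.05. In the authors' deposited table for anti-miR-501-3p, 50 of 55 had one, with 21 higher and 7 lower. The shares over all genes of the authors' tables were not computed, so these counts have no baseline.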

How the data were processed

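Gene counts of 10 poly(A) libraries were deposited by the authors as whole-number counts for each Ensembl gene, without normalization. The tools named in the submitters' processing notes are STAR 2.5.2b, Subread 1.5.1, featureCounts and FastQC 0.11.5, and the build is mm10. The annotation release, the strand setting and the treatment of multi-mapped reads are not given in the sources used here. Per the labels' protocols, reads were single-end and 50 bases long, from a TruSeq v2 kit, which does not mark strand. The authors also deposited a table per inhibitor with log2 fold changes, p-values and a normalized signal per library (counts divided by a single factor). Only its fold changes and adjusted p-values were used.

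Symbols were matched by Ensembl identifier to GENCODE M21. With R 4.3.3 and edgeR 4.0.16, genes were filtered with filterByExpr, scaled by TMM and tested in a fit of all 10 libraries (3 groups, no covariate, robust quasi-likelihood, two-sided, Benjamini-Hochberg over 16884 genes). SE is the log2 fold change divided by the root of F. The test was checked on simulated data. RPKM used the union of annotated exons. Alternatives were DESeq2 1.42.0, other scalings, no filter, only the groups compared, a replicate block, a surrogate variable (sva 3.50.0), an offset for GC content and length (splines of 5 degrees of freedom), and leaving out each library.

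Values of every library are given for the 8 largest called rises and falls per comparison with a mean log2 CPM of at least 1, the 6 members of highest RPKM, members with a seed match and the 3 of smallest p between the inhibitors (31 genes in all), and from regulator lists members among the 4 of smallest p. Seed motif letters were those of an earlier analysis of these data and were not checked against a microRNA table. The members and lists were chosen with earlier results of these data known.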

Additional observations from a re-analysis of the deposited data

Results flagged for a closer look

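Among the 31 Rab genes given library by library, 62 groups of 4 libraries were checked for a value far from the other 3, by Dixon's 95% critical value. A gap of that size was found in 4, and chance flags about 1 in 20 groups. Rab30, Rab3c and Rab6a were each low in anti-miR-501-3p replicate 1, at 58.1, 452 and 498 CPM. The other 3 libraries held 66.1 to 67.6 CPM of Rab30, 499 to 505 of Rab3c and 548 to 553 of Rab6a. Rab5b was high in anti-miR-501-3p replicate 3, at 73.8 CPM, with 71.3 to 71.7 in the other 3. Without a replicate block, edgeR called no Rab gene between the inhibitors.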

How the results depend on the processing

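In edgeR and DESeq2, the counts of Rab genes called against control stayed within 1.5 times the reported ones under DESeq2, other scalings, no filter and the fit of only the groups compared. With the GC and length offset, anti-miR-409-5p gave 9 rises and 0 falls, and 12 and 1 were called under anti-miR-501-3p. With a surrogate variable, anti-miR-409-5p gave 11 rises and 0 falls. Under anti-miR-501-3p, 20 of the 21 rises and 4 of the 8 falls still passed in that fit. Leaving out each library in turn gave, for anti-miR-409-5p, 13 to 22 rises and 0 to 11 falls, 17 to 23 higher and 0 to 10 lower under anti-miR-501-3p, and 0 between the inhibitors. Without anti-miR-409-5p replicate 3, 5 members were lower under that inhibitor. Of these alternatives, shares over all tested genes were computed only for the GC and length offset and the fits without a control library. The other counts against control, those with the surrogate variable included, have no such baseline. The 8 largest rises of each comparison passed without any single library. The cause of these changes was not tested.

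Same-numbered libraries of different groups had deviations from their group means that correlated at 0.0283 to 0.174. Each anti-miR-409-5p library correlated best with the anti-miR-501-3p library of its number. Replicates 1 and 2 of each inhibitor correlated best with the control of their number. The deviations of the 2 controls mirror each other, so a best match to control is a choice by sign alone. Best matches in the reverse direction were not looked for. The main fit left the numbers out because the labels name no batch. Control has replicates 1 and 2 only, so replicate number is not balanced between the groups. Within every group the slope on GC content fell, and the share of mitochondrial counts rose, with replicate number. What part this had in the calls was not tested. With the replicate block, edgeR called 21 rises and 8 falls for anti-miR-409-5p, 21 and 9 under anti-miR-501-3p, and 2 between the inhibitors (1.49% of all tested genes). With the replicate block and the GC and length offset together, 10 and 0, 12 and 1, and 2 were called (1.06% of all tested genes between the inhibitors). For the fits with the block, shares over all tested genes were not computed for the comparisons against control.

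Called log2 fold changes that turned sign with the GC and length offset were those of Rab5c (5.2e-06), Rab3a (0.059) and Rab27b (-0.18) under anti-miR-409-5p and of Rab5c (0.0062), Rab3a (0.041), Rab26 (0.031) and Rab27b (-0.15) under anti-miR-501-3p. With the block added, among the 8 largest rises and falls of each comparison, they were Rab1b (0.016), Rab24 (0.011) and Rab34 (0.011) under anti-miR-409-5p and Rab24 (0.025), Rab26 (0.012), Rab3a (0.024) and Rab5c (0.0029) under anti-miR-501-3p, and none of the values in either fit passed (smallest edgeR adjusted p = 0.0755). With 2 control libraries and a median SE of 0.064, small log2 differences of single members may have been missed. The SE differed between members, as with 0.032 for Rab6b and 0.40 for Rab20 under anti-miR-409-5p. A smallest detectable difference was not computed.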

Other observations

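Replicate 1 of each inhibitor lay nearest to control for most called Rab genes. It held the lowest CPM of its group for 16 of the 19 members that rose under anti-miR-409-5p and for 17 of the 21 that rose under anti-miR-501-3p. Among the members that fell, it held the highest CPM of its group for 7 of 9 and 5 of 8. The same libraries had the highest slopes on GC content in their groups, at 0.0384 and 0.00784. These slopes are relative to the mean of the 10 libraries, per 10 points of GC. The other 3 libraries of each group had -0.109 to -0.00825 and -0.131 to -0.0882, and the controls 0.203 and 0.272. They also had the lowest shares of mitochondrial counts in their groups, at 3.40% and 3.33%, with 2.59% and 2.78% in control. The part of these differences in the results was not tested.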
